A study of Drosophila melanogaster with 3 samples.

Results

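The 9 genes described here act in dosage compensation, and they were examined for regions bound by the heterochromatin factor Su(var)3-7. They are 9 of 17290 protein-coding and non-coding RNA genes in the Ensembl annotation. The 9 came from a list drawn up with earlier results of these data known. It holds msl-1, msl-2, msl-3, mle, mof, Clamp and JIL-1, which encode proteins, and lncRNA:roX1 and lncRNA:roX2 (hereafter roX1 and roX2), which encode RNAs. A summit, the position of highest signal in a listed region, was counted for a gene when it lay in the gene body or up to 2 kb on either side. The samples were 3 biological replicates of 1 group: mixed-sex whole Drosophila melanogaster embryos aged 0 to 24 h, of a strain named Su(var)3-7-GFP that carries a transgene for Su(var)3-7 with a C-terminal eGFP tag. Chromatin was sonicated, precipitated with an antibody against GFP and sequenced (ChIP-seq). Neither the promoter of the transgene nor the presence of untagged Su(var)3-7 is stated by the labels. All embryos carried the transgene and males and females were pooled, so no comparison between genotypes or sexes could be made.

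In male flies the single X chromosome is transcribed at a raised rate by the MSL complex, which is built from the proteins MSL1, MSL2, MSL3, MLE and MOF and the non-coding RNAs roX1 and roX2. MSL2 is made in males only, because the protein Sex-lethal blocks its production in females, and the complex first binds GA-rich elements on the X, among them elements in the roX genes, that are also bound by the zinc-finger protein CLAMP. MOF acetylates histone H4, MLE is an RNA helicase that remodels roX RNA, and JIL-1 is a kinase of histone H3 that is enriched on the male X and counters the spread of heterochromatin. Su(var)3-7 is best known from heterochromatin, and its loss alters the shape of the X in male salivary glands.

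The lists used were deposited on genome build dm6. Each replicate and the pooled replicates had a relaxed list of 30000 regions, and 4055 regions of the pooled list passed the authors' reproducibility threshold. Signal values are the authors' own, on a scale that is not stated, so they are given as ranks or as multiples of the list's median (52.9 in the pooled list). The lowest thresholded signal was 119, or 2.24 times that median. The lists held no read counts, so depth is unknown and no interval on a signal could be given. The 9 windows held 46 summits of the pooled list, 7 of them thresholded, and 43, 43 and 49 summits of the lists of replicates 1, 2 and 3.

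Thresholded Su(var)3-7-GFP summits lay at 4 of the 9 genes. JIL-1 had 4 summits, and roX2, mle and msl-1 had 1 each, while msl-2, msl-3, mof, Clamp and roX1 had relaxed summits only. With relaxed summits counted all 9 genes qualified, as did 72.9% of protein-coding and 55.6% of non-coding RNA genes. Among the 7 protein-coding genes 3 had a thresholded summit, beside 32.7% of all 13986 protein-coding genes by the same rule, and among the 2 RNA genes 1 had one, beside 18.5% of 3304 non-coding RNA genes. These shares are close to the background for so few genes, and no test was made on the list. The windows of the 9 genes were somewhat longer than usual, with a median of 7895 bp against 6163 bp for protein-coding genes. Inside the gene body itself JIL-1 alone had a thresholded summit, beside 11.2% of protein-coding and 4.39% of non-coding RNA genes. The summit of msl-1 was the only one closer than 500 bp to a start site of its own gene, and 18.4% of protein-coding and 5.69% of non-coding RNA genes had such a summit. In the strongest 4055 regions of replicates 1, 2 and 3, respectively, 0, 2 and 3 of the 9 genes had a summit at a start site: msl-1 and roX1 in replicate 2, and msl-1, Clamp and JIL-1 in replicate 3. The same call took in 18.7%, 17.6% and 18.5% of protein-coding genes and 5.66%, 6.33% and 5.66% of non-coding RNA genes.

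The order of the genes by their strongest summit was led by JIL-1 in every replicate. It stood at 10.4, 13.1 and 7.59 times the list median in replicates 1, 2 and 3 (mean 10.4 ± 2.77, SD, n = 3). The summit beside roX2 was next, at 3.98, 5.05 and 3.60 times (4.21 ± 0.750), and was lower than that of JIL-1 in 3 of 3 replicates without overlap. The summit beside mle, at 3.89, 2.31 and 2.91 times (3.04 ± 0.797), overlapped in range with those of roX2 and of msl-1, which stood at 1.96, 2.36 and 2.42 times (2.25 ± 0.250). Clamp followed at 1.66, 1.68 and 2.42 times (1.92 ± 0.435), then roX1 (1.30 ± 0.749), msl-2 (1.22 ± 0.378) and msl-3 (1.11 ± 0.375), whose ranges overlapped each other. The strongest pooled summit of mof, at 0.904 times the pooled median, had a counterpart within 200 bp in replicate 1 alone. With 3 replicates of a single group, these values describe the order and were not tested.

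**Figure D1:**
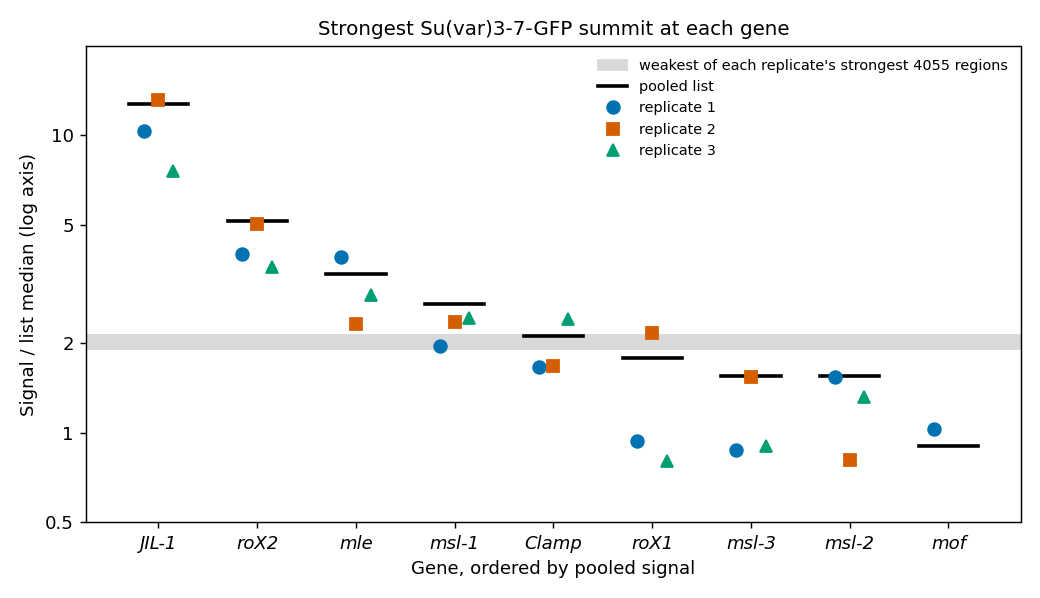
Signal of the strongest pooled summit in the window of each gene, as a multiple of the list median (log axis), with the matching summit within 200 bp in each replicate; black bars are the pooled list and the grey band spans the weakest of the strongest 4055 regions of the 3 replicates (1.92 to 2.14 times). JIL-1, roX2 and mle lie above the band in all 3 replicates, and msl-2, msl-3 and mof lie below it.

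JIL-1 (FBgn0020412, chr3L:11078752-11093193, minus strand) was bound inside the gene. Its strongest summit was in a peak at chr3L:11084623-11084929 with a signal of 676, rank 153 of 30000 in the pooled list. It lay in an intron, 8399 bp into the gene and 7062 bp from the nearest annotated start site. The replicates gave it signals of 199, 335 and 138 and ranks of 154, 123 and 289, with summits at most 31 bp from the pooled one. It was thus among the strongest 4055 regions of all 3 replicates. The bases around this summit are shown because it is the strongest of all those at the 9 genes. They are the plus strand of the RefSeq genome of the same build, chr3L:11084694-11084894, with the 11 bases centred on the summit in capitals.
JIL-1 intron: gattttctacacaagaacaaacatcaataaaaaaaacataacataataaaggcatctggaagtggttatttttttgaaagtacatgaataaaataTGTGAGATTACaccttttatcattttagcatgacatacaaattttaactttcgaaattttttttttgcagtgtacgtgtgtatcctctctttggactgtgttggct
The stretch was AT-rich, with 28.9% G or C, where windows of the same length around the 4055 thresholded summits had a median of 38.3% and a lowest 5% limit of 28.9%.

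The other summits of JIL-1 were nearer its start sites. A pair lay in an intron, at chr3L:11089902-11090008 (signal 289, rank 911) and chr3L:11089985-11090408 (signal 219, rank 1468), 3195 and 2996 bp into the gene. The first of the pair had signals of 96.2, 131 and 69.8 in replicates 1, 2 and 3 (4.66 ± 0.720 times the list median), and the second, read from the nearest replicate summit, 62.7, 96.1 and 45.6 (3.18 ± 0.638 times). The first was the higher in every replicate. The peaks of the pair overlap, so they are not independent. A further summit lay in the 5′ UTR shared by the longer transcripts, at chr3L:11092186-11092609 (signal 262, rank 1075), 795 bp into the gene and 542 bp before the inner start site. It stood at 3.78, 5.57 and 2.75 times the median, highest in replicate 2. In replicate 3 its summit was 481 bp from the inner start site, which is why JIL-1 counted as bound at a start site there. Each of the 4 summits had a match in the strongest 4055 regions of every replicate. At the outer start site of JIL-1 itself the pooled list had a summit 13 bp upstream with a signal of 109, or 1.39, 1.83 and 1.86 times the median in the replicates, just below the threshold.

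Several thresholded summits in 1 gene were uncommon. Of all protein-coding genes 216 (1.54%) had 4 or more in the same window, and among the 1416 genes at least as long as JIL-1 161 (11.4%) did. The largest number at any protein-coding gene was 13. JIL-1 has a longer window than all but 10.1% of protein-coding genes.

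**Figure D2:**
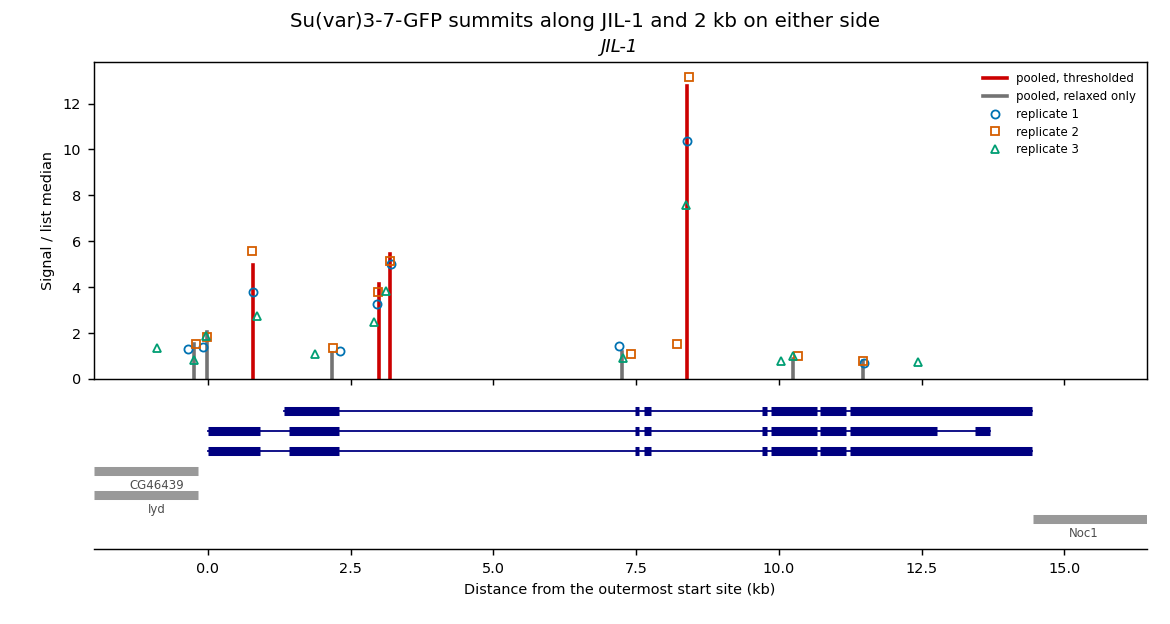
Summits along JIL-1, with distance from the outermost start site in kb on the x axis and signal as a multiple of the list median on the y axis; bars are pooled summits (red where thresholded), markers are the replicate lists' own summits, dark blue boxes are exons of the 3 transcripts and grey boxes are neighbouring genes. The tallest bar stands 8399 bp into the gene and the other 3 thresholded bars within its first 3195 bp.

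Of the windows of the roX genes, only that of roX2 held a thresholded summit, and it lay outside the gene. Neither gene had one in its body or within 500 bp of its own start site. At the start sites the strongest pooled signal was 94.7 for roX1 and 65.4 for roX2, but roX1 was the higher in replicate 2 alone. The thresholded summit counted for roX2 (FBgn0019660, chrX:11579065-11580432, plus strand) lay 68 bp beyond the annotated end of the gene, in a peak at chrX:11580288-11580711 with a signal of 274 and rank 1000. The replicates gave signals of 76.5, 129 and 65.6 and ranks of 1115, 947 and 1256, with summits at most 12 bp from the pooled one. All 3 were among the strongest regions of their list. The summit was 1435 bp from the start site of roX2 but 272 bp upstream of the start site of nod, which encodes a kinesin-like protein of meiotic chromosomes, so it cannot be given to 1 of the 2 genes from its position. A weaker relaxed summit lay 72 bp upstream of the start site of nod (signal 105, rank 4906).

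At the start site of roX2 itself the pooled list held a summit 8 bp downstream with a signal of 65.4, rank 10394. Replicates 1 and 3 had summits there at 1.03 and 1.28 times their median, and replicate 2 had its nearest one 318 bp upstream at 0.877 times. Levels at this start site were thus near the middle of the lists, where the 3′ summit was above the threshold.

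The sequence at the 3′ summit is given because it is the only thresholded summit at an RNA gene of the list. It is chrX:11580400-11580600, plus strand, with the last 33 bases of roX2 in capitals.
roX2 end: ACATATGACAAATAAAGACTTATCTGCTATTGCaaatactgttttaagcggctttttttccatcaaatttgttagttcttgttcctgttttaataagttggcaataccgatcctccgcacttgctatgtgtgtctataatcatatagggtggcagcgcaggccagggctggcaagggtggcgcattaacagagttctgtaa
Of 4 motifs searched on both strands none had a match here: GAGAGAGA, the core of the GA-rich element bound by the MSL complex and CLAMP and a site of GAGA factor, TATCGATA, the DRE element of DREF and BEAF-32, GGTCACACT, the promoter motif of M1BP, and GTTNTACG, the roX box of the roX RNAs. They occur in 2.27%, 4.86%, 2.39% and 1.16% of the 4055 windows of this length around thresholded summits. GAGAGAGA and the GA repeats named below are the same motif.

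Matches to the motifs tied to dosage compensation lay inside roX2, upstream of the summit. The 2 roX boxes were 1014 and 1079 bp into the gene, both on the sense strand, or 421 and 356 bp from the summit. The 2 GA repeats were 1148 and 1202 bp into the gene, or 287 and 233 bp from the summit. These are exact letter matches, and how finely a summit places binding was not assessed. The stretch that holds them, chrX:11580074-11580279 on the plus strand, is given with the matches in capitals.
roX2 elements: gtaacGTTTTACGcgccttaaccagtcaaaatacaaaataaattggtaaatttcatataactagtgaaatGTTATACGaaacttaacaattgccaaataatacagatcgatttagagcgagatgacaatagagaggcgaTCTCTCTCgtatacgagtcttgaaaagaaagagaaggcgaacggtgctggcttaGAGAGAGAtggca
Of 97863 genome tiles as long as roX2 (1368 bp), 8.48% hold a roX box and 0.403% hold 2 or more, and 7.24% hold the GA repeat and 3.35% hold 2 or more. The roX box is a motif of the roX RNAs themselves, so its matches in roX2 and roX1 are no independent result. Overlapping matches in 1 longer GA repeat were counted separately, so the 3.35% is not the share of tiles with 2 separate sites, as in roX2. A match to the M1BP motif lay 11 bp into the gene, by the relaxed summit at the start site, where 1.39% of those tiles hold one. Another M1BP match, at chrX:11580801-11580809, lay 301 bp past the 3′ summit, inside nod. No summit of the pooled list lay between 250 bp into roX2 and the summit past its end.

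roX1 (FBgn0019661, chrX:3857230-3862697, minus strand) had no thresholded summit. Its strongest pooled summit, at chrX:3862299-3862722 with a signal of 94.7 and rank 5714, lay in an exon, 186 bp into the gene and 86 bp before the next start site. The replicates disagreed here: signals were 18.0, 55.1 and 14.6 in replicates 1, 2 and 3, or 0.939, 2.16 and 0.804 times the list median, with ranks of 16814, 3980 and 22417. Replicate 2 alone placed the summit among its strongest 4055 regions. Without replicate 2 the mean was 0.871 times the median, against 1.30 with it.

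The second summit of roX1, 1415 bp into the gene (pooled signal 65.3), also stood highest in replicate 2, at 1.95 times the median against 0.870 in replicate 1, and replicate 3 had no summit within 200 bp. For roX2 replicate 2 gave the highest value as well, but there replicates 1 and 3 were at 3.60 times or more. The 5 roX box matches in roX1, 3 of them on the sense strand, included a cluster of 4 between 3529 and 3782 bp into the gene. The nearest pooled summit to that cluster was at 3263 bp with 0.929 times the pooled median. Of 24481 genome tiles as long as roX1 (5468 bp), 29.4% held a roX box and 0.0204% held 5 or more. The GA repeat had no match inside roX1 or within 2 kb of it, and was found in 24.5% of those tiles.

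**Figure D3:**
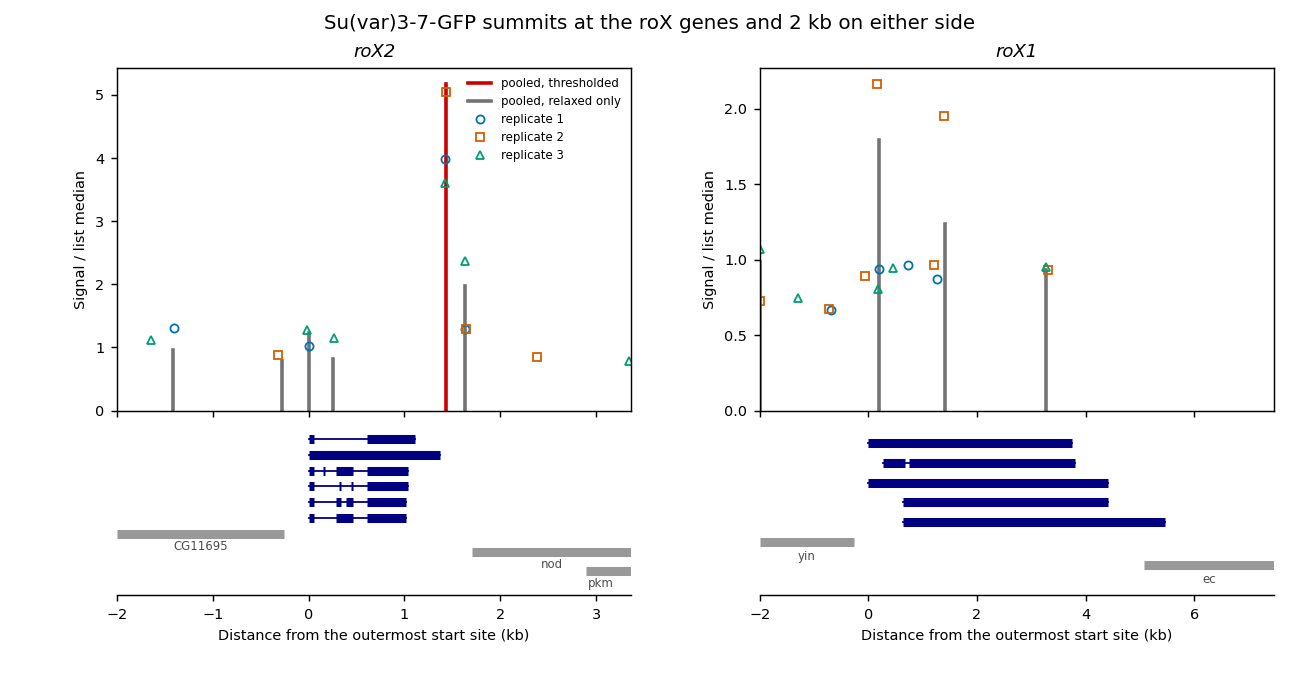
Summits at roX2 (left) and roX1 (right), with distance from the outermost start site in kb on the x axis and signal as a multiple of the list median on the y axis (scales differ); bars are pooled summits (red where thresholded), markers the replicate lists, dark blue boxes exons and grey boxes neighbouring genes. The red bar at roX2 stands between the gene's end and nod, and at roX1 the squares of replicate 2 stand alone near 2 times the median.

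Of the genes of the MSL proteins, msl-1 alone carried a thresholded summit at its own start site. MSL1 is the scaffold on which the other proteins assemble. The msl-1 peak (FBgn0005617, chr2L:18683720-18688800, minus strand) spanned chr2L:18688658-18689081 with a signal of 143 and rank 3003, and its summit was 70 bp upstream of the start site. Signals in replicates 1, 2 and 3 were 37.7, 60.0 and 44.2, with ranks of 4161, 3450 and 2599, so replicate 1 placed it just outside its strongest 4055. The summit was therefore lost when it had to be among the strongest 4055 regions of both remaining replicates without replicate 2 or without replicate 3, which took the start-site count of the 9 genes from 1 to 0. The replicate summits were 5 to 38 bp from the pooled one. The bases before the start site are shown because this is the only promoter of the list with a thresholded summit. They are chr2L:18688801-18688970, plus strand, with the 11 bases centred on the summit in capitals.
msl-1 promoter: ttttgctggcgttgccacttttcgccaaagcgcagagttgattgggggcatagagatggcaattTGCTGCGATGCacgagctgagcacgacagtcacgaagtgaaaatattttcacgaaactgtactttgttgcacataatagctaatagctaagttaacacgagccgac
None of the 4 motifs had a match within 100 bp of this summit.

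Among the 4055 thresholded regions the msl-1 summit was in the weaker part, at rank 3003. Its pooled signal was above that of 85.6% of 13986 protein-coding genes at their start sites, genes without a summit there counting as lower. The genes closest to it in their start-site values over the 3 replicates, by Euclidean distance of log2(signal / list median) among 5347 genes with a value in each, were cana (0.0439), scf (0.0610) and Atg2 (0.110). cana encodes a kinesin and Atg2 a protein of autophagy. CG12093 had the same values as Atg2 and so shares its distance.

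msl-2 and msl-3 had relaxed summits right at their start sites. MSL2 is the male-specific subunit that guides the complex to DNA, and MSL3 binds methylated histone H3. At msl-3 (FBgn0002775, chr3L:7123213-7125533, minus strand) the pooled summit was 48 bp upstream of the start site, with a signal of 82.2 and rank 7189. The replicates gave 16.9, 39.2 and 16.4, or 0.878, 1.54 and 0.901 times the list median, so replicate 2 stood above the others. At msl-2 (FBgn0005616, chr2L:3462218-3466112, minus strand) the summit was 30 bp upstream, with a signal of 82.0 and rank 7222, and 15 bp upstream of the start site of its divergent neighbour ND-PDSW. Here the replicates gave 29.7, 20.6 and 24.0, or 1.55, 0.809 and 1.32 times the median, and replicate 2 was the lowest. No replicate placed either summit among its strongest 4055 regions.

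At the strongest summit of msl-2 the M1BP motif had 1 match, starting 63 bp to the left of the summit. The strongest summits of mof, Clamp and roX1, and all 4 thresholded summits of JIL-1, had no exact match to any of the 4 motifs within 100 bp. The longest run of only G and A or only C and T was 16 bp at the Clamp summit and 15 bp at the 5′ UTR summit of JIL-1. In the 4055 thresholded windows the median was 8 bp and the highest 5% limit 15 bp. Such a run can be 1 repeated base, so it is not a match to the GA repeat. Motif matches and runs are letters only, and binding by the factors was not measured.

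mle (FBgn0002774, chr2R:5974857-5980778, minus strand) was counted through a summit beyond its 3′ end. That peak, at chr2R:5974288-5974711 with a signal of 181 and rank 2033, had its summit 357 bp past the end of mle and 115 bp upstream of the start site of BubR1, which encodes a protein of the spindle checkpoint. The replicates gave signals of 74.8, 58.9 and 53.1 and ranks of 1150, 3559 and 1877, within the top 4055 of each. Its window held 1 DRE match, 89 bp to the left of the summit. At the start sites of mle itself none of the 4 relaxed lists, pooled or replicate, had a summit within 500 bp, which made it the only one of the 9 genes without one in the pooled list. Such a summit was listed for 51.8% of protein-coding genes and 28.4% of non-coding RNA genes. The 3 strongest pooled summits inside or upstream of mle had signals of 77.7, 76.2 and 56.3, and the first of them lay 109 bp past the start site of the neighbouring gene Src42A.

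Clamp (FBgn0032979, chr2L:22165720-22169143, minus strand), the gene of the GA-binding protein, came closest to the threshold among the genes that missed it. Its strongest pooled summit, in an intron 485 bp from the start site, had a signal of 112 and rank 4411. The replicates gave 31.9, 42.7 and 44.1, with ranks of 5743, 6047 and 2609, so replicate 3 alone placed it among its strongest 4055. A second summit 239 bp upstream of the start site had a signal of 67.8.

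mof (FBgn0014340, chrX:5873840-5876853, minus strand), the gene of the acetyltransferase, had the weakest signals of the 9. Its 3 pooled summits had signals of 47.8, 46.6 and 36.9, all below the list median, and replicate 2 listed none in the whole window. Within 500 bp of the start site of mof, replicates 1 and 3 had summits at 1.03 and 1.16 times their median. Just outside the window, 2786 bp from mof, lay a thresholded summit of signal 189 at the start site of the next gene, Usp30. Around roX2 a thresholded summit of signal 123 lay 2271 bp from the gene, 89 bp upstream of the start site of CG11695. For the other 7 genes the nearest thresholded summit outside the window was 5175 to 36917 bp away.

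**Figure D4:**
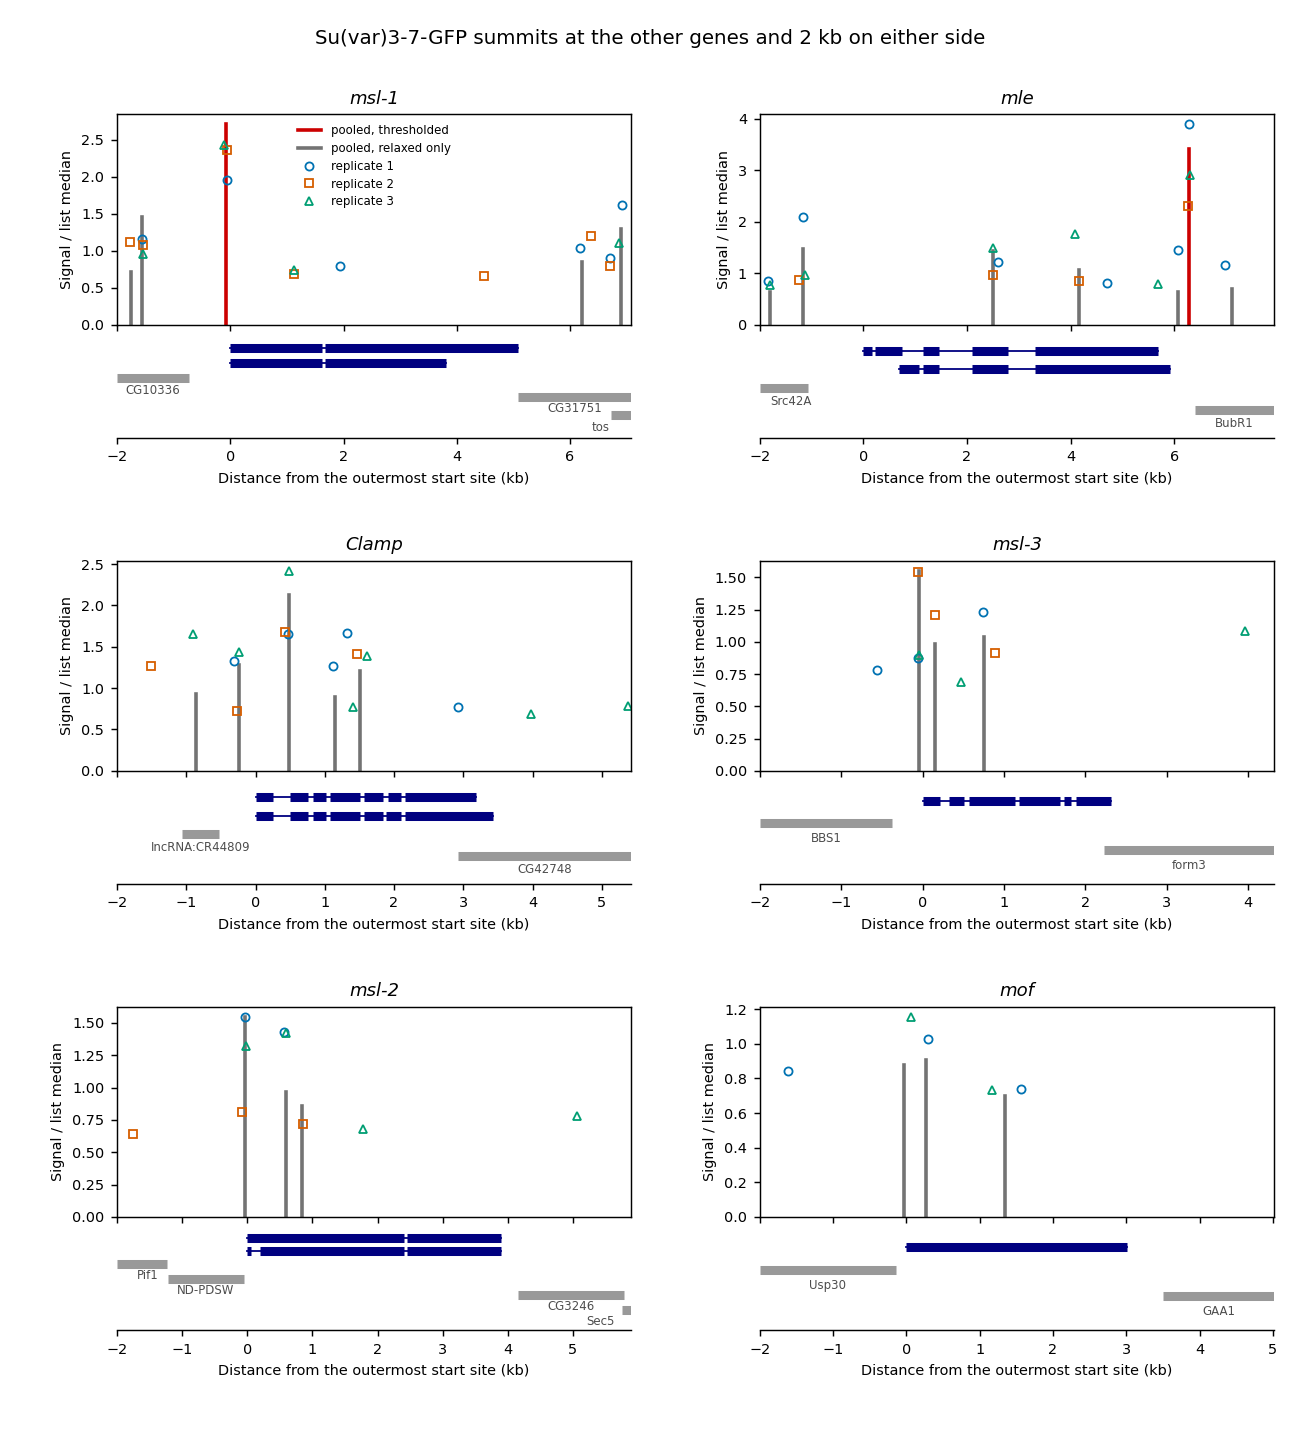
Summits at msl-1, mle, Clamp, msl-3, msl-2 and mof, with distance from the outermost start site in kb on the x axis and signal as a multiple of the list median on the y axis (scales differ); bars are pooled summits (red where thresholded), markers the replicate lists, dark blue boxes exons and grey boxes neighbouring genes. The red bar of msl-1 stands at its start site, and that of mle stands beyond its end, next to BubR1.

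Genes that act with dosage compensation were read from 3 lists of 33 genes in all, of which 14 (42.4%) had a thresholded start-site summit by the same 500 bp rule, beside the 18.4% of all protein-coding genes. In replicates 1, 2 and 3 the count was 13, 11 and 16. The lists are short, and results for some of these genes were known when they were drawn up, so the count describes these genes only.

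The NSL complex is the second complex that contains MOF and acts at promoters in both sexes. None of its other 6 genes had a thresholded start-site summit, beside 18.4% of protein-coding genes, a count of 0 that so short a list does not set apart. In the strongest 4055 regions of replicate 3, nsl1 had one. By the rule of the gene body or 2 kb on either side, 3 of the 6 (MBD-R2, nsl1 and wds) had a thresholded summit, beside 32.7% of protein-coding genes. Within 500 bp of a start site, dgt1 and MBD-R2 had relaxed summits with signals of 80.2 and 70.7. The strongest relaxed start-site signal of the list was 114, at nsl1, a gene named after its value was seen.

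Of 16 genes that count X chromosomes or set the sexual fate, 7 had a thresholded start-site summit, beside 18.4% of protein-coding genes, and 6, 6 and 7 had one in the strongest 4055 regions of replicates 1, 2 and 3. In the gene body or 2 kb on either side 9 of the 16 had one, beside 32.7%. The strongest was at gro, which encodes the co-repressor Groucho, with a signal of 684 and 10.9, 11.1 and 10.8 times the list median in the replicates. Sxl, the female switch gene that represses msl-2, had a signal of 326 (4.17, 5.61 and 5.60 times), 364 bp inside a start site. Unr, whose RNA-binding protein acts with Sex-lethal on msl-2 RNA, had a signal of 272 (4.79, 4.89 and 3.00 times). The splicing and RNA methylation factor genes fl(2)d, snf and vir had signals of 215, 145 and 122, and da, which encodes a helix-loop-helix activator of Sxl, had 181. dpn and dsx had only relaxed summits at 44.9 and 40.4. No pooled summit, relaxed or thresholded, lay within 500 bp of a start site of the X-linked genes sc, sisA and upd1.

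Of 11 genes of chromatin proteins tied to the male X or to JIL-1, 7 had a thresholded start-site summit, beside 18.4% of protein-coding genes, and 7, 5 and 8 had one in the strongest 4055 regions of replicates 1, 2 and 3. In replicate 2 Iswi and the gene of HP1a were missing. In the gene body or 2 kb on either side 8 of the 11 had one, beside 32.7%. The 7 in the thresholded list were Chro, the gene of the JIL-1 partner Chromator (signal 2117), Trl of GAGA factor (542), pzg of the Chromator partner Z4 (227), Su(var)3-7 itself (222), SuUR, whose protein slows replication of heterochromatin (214), the gene of the heterochromatin protein HP1a (123) and Iswi of a chromatin remodeller (122). Whether the transgene adds copies of the Su(var)3-7 start site is not stated, so that signal cannot be assigned to the gene's own locus alone. Nap1 and Set2 had relaxed summits at 47.9 and 61.2. pzg differed between replicates, at 5.93, 2.70 and 2.56 times the list median. For comparison, the highest start-site signal among the 9 dosage compensation genes was the 143 of msl-1. Sxl stood above msl-1 in 3 of 3 replicates, at 4.17 times or more against 2.42 times or less.

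**Figure D5:**
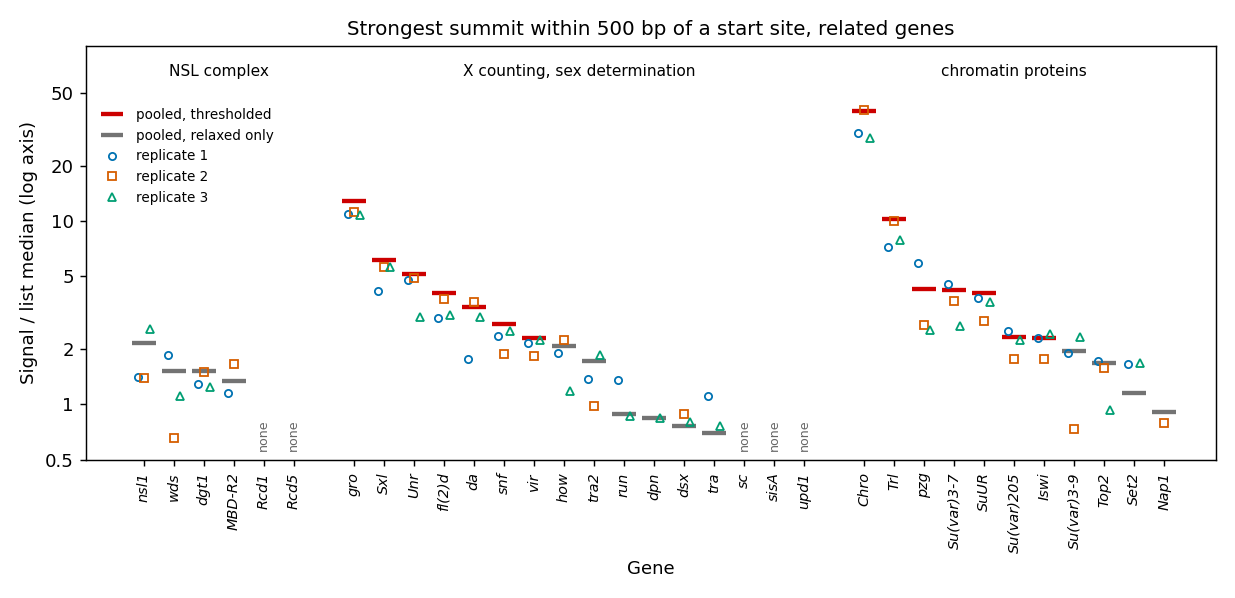
Signal of the strongest summit within 500 bp of a start site for 33 related genes in 3 lists, as a multiple of the list median (log axis); horizontal bars are the pooled list (red where thresholded, grey where relaxed only), markers are replicate summits within 200 bp, and "none" marks genes without a pooled summit there. The bars of the NSL list are all grey, and 7 bars in each of the other lists are red.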

How the data were processed

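Per the deposited inventory texts, the relaxed dm6 lists were made from each replicate's alignments or from all 3, each with 1 further file shared by all lists and not analysed here, and the thresholded list was drawn from these 4 by the irreproducible discovery rate. Aligner, caller, threshold and versions: not given in the sources used here. The deposited signal of each region has no stated scale, so it was used as a rank or divided by its list's median. The 5 dm6 lists were used and the dm3 lists were not used here. Depth is unknown.

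Gene models are those of Ensembl (release 115, BDGP6.54), and sequences are from the RefSeq genome of that assembly, with 1-based coordinates. Summits are column 2 plus column 10. A replicate's value is its strongest summit within 200 bp of the pooled one, or the nearest for summits below a gene's strongest. Where the text speaks of a start site in a replicate without a pooled match, its own summit within 500 bp was read. Replicates are biological per the labels, which name no batch, and with 1 group no comparison between groups exists; summits were not tested against each other.

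The 9 genes, the 3 lists of related genes and the 4 motifs were chosen with earlier results of these data known. Named are all 9 genes, each related gene with a thresholded start-site summit, the first 2 in alphabetical order without one, neighbours whose start site is within 500 bp of a thresholded summit, and the 3 genes closest to msl-1. Other neighbours, nsl1, wds, sc, sisA, upd1 and CG12093 were named after their values were seen. The sequence and motif matches of 1 promoter are not reported here. Counting and motif search were tested on simulated data. Python 3.11.15, NumPy 2.4.6, pandas 2.3.3 and matplotlib 3.10.9 were used.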

Additional observations from a re-analysis of the deposited data

How the results depend on the processing

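The count of 4 genes with a thresholded summit became 2 (JIL-1 and roX2) among the strongest 2027 thresholded summits, 9 with all relaxed summits, and 1 (JIL-1) when the 2 kb on either side were left out, since the summits of roX2, mle and msl-1 lie outside the gene bodies. With 1 kb or 5 kb it was 4 and 5. Taking pooled summits shared by the strongest regions of the 2 remaining replicates, it ranged from 3 to 4, msl-1 being lost without replicate 2 and without replicate 3. Without replicates 1, 2 and 3 these sets held 3006, 2962 and 3073 summits, against 4055 thresholded, so a fall in any count can follow from their size. Their summits also come from the pooled list, which includes the replicate left out. Relaxed summits took in 72.9% of protein-coding and 55.6% of non-coding RNA genes by the 2 kb rule. Thresholded summits inside gene bodies took in 11.2% and 4.39%. Shares of all genes are not given among the 2027 strongest or at other distances, for any count here. Such moves are thus no result about these genes. The start-site count of 1 (msl-1) became 0 among those 2027 summits, 8 with relaxed summits and 2 within 1 kb, where JIL-1 joined, and ranged from 0 to 1 when replicates were left out, msl-1 being lost without replicate 2 and without replicate 3. RefSeq start sites and outermost start sites left it at 1. Relaxed start-site summits were listed for 51.8% of protein-coding and 28.4% of non-coding RNA genes. In replicates 1, 2 and 3 the start-site counts of 0, 2 and 3 became 0 among the strongest 2027 regions of each. In replicate 1 the count was 1 within 1 kb, and in replicate 3 it was 1 within 200 bp. Of the 33 related genes, 14 in the full list, 9 had one among the 2027 strongest. A relaxed summit was listed for 28, beside that 51.8% of protein-coding genes. The count ranged from 9 to 13 when replicates were left out, with 9 without replicate 3. For the strongest-summit means of 8 genes, leaving out a replicate cannot move a mean of 3 by 1 SD, so it says nothing about stability there. Other matching distances, and the nearest replicate summit, which was chosen after seeing the data, gave the same means, except 1.35 for roX1 with matches within 500 bp. mof had a matching summit in 1 replicate and so has no mean. No paired analysis was possible because no groups are compared and the results come from no test. Within-replicate orders are given as values only.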
